A study of Mus musculus with 15 samples.

Results

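The 36 genes described here belong to the endoplasmic reticulum (ER) stress response and the amino acid response driven by the transcription factor ATF4. They were chosen by name for these roles, and all 36 were present among the 34432 genes listed in both tables of normalized counts. They fell into 4 classes: Atf4 with 7 of its regulatory targets, 12 metabolic enzymes and transporters that ATF4 induces, 4 genes of the ER stress sensing branches, and 12 ER chaperones and related folding factors. The ATF4 arm therefore holds 20 genes and the ER arm 16.

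The libraries came from CT26, an established mouse colon carcinoma cell line, and were made to find genes that respond to loss or inhibition of PRMT1, the main enzyme for asymmetric dimethylation of arginine in proteins. In the knockdown experiment, 3 shControl libraries were compared with 3 shPrmt1 libraries, the latter from cells stably infected with a doxycycline-inducible short hairpin RNA against Prmt1 and induced for 3 days, as the study's legends give for this line. In the inhibitor experiment, 3 vehicle libraries were compared with 3 libraries of wild-type CT26 cells given MS023 and 3 given GSK3368715, both at 6 µM for 48 hours. Whether shControl cells also received doxycycline is not given in the sources used here, and no clone number or passage is given. The series calls the 3 libraries of a group biological replicates, but does not say that they came from separate cultures, so that p-values measure the spread between these libraries.

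When unfolded proteins accumulate in the ER, the kinase PERK (Eif2ak3) phosphorylates the initiation factor eIF2α, which lowers protein synthesis in general and raises translation of ATF4. ATF4 is also raised when amino acids are scarce, through the kinase GCN2, and it induces genes for amino acid synthesis, amino acid uptake and one-carbon metabolism. The other ER branches act through IRE1 (Ern1), which splices the mRNA of Xbp1, and through ATF6, and these factors induce ER chaperones. ATF4 is controlled in large part at translation and XBP1 by splicing, neither of which a gene-level mRNA count measures.

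Promoter windows from RefSeq on the mouse build GRCm38.p6 (mm10), from 250 bases before to 50 bases after each annotated start, were found for 32 of the 36 genes and searched on both strands for 4 known elements. The C/EBP-ATF response element (CARE, searched as TGATGNAA) was found in windows of 7 members and in 3.97% of all 32851 windows. The ER stress response element (ERSE, searched as CCAAT, any 9 bases, CCACG) was found in 6 members and in 0.119% of windows. ERSE-II (ATTGG, any 1 base, CCACG) was found in Herpud1 alone among members and in 0.0365% of windows, and the unfolded protein response element (UPRE, TGACGTGG) in no member and in 0.676% of windows. A match describes these letters only. The stretches below show, in gene orientation, one element per gene in capitals for the CARE members Asns, Pycr1 and Vldlr and the ERSE members Calr and Dnajc3, whose expression passed the test under MS023, and for Chac1 and Hspa5, which did not. They were chosen after the values were seen. The stretches of Asns, Vldlr and Hspa5 are short because they lie in exons of the GENCODE annotation, which places the start farther upstream than RefSeq.
Asns, chr6:7693214-7693243, minus strand: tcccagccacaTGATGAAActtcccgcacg
Pycr1, chr11:120643804-120643891, minus strand: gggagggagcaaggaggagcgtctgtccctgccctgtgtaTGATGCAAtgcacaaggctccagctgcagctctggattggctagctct
Vldlr, chr19:27216809-27216838, plus strand: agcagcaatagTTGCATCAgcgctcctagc
Chac1, chr2:119351009-119351096, plus strand: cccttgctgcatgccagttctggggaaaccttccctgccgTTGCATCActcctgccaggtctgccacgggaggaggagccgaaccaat
Calr, chr8:84847035-84847133, minus strand: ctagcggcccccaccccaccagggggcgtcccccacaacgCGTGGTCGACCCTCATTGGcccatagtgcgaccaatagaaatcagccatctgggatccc
Dnajc3, chr14:118937787-118937885, plus strand: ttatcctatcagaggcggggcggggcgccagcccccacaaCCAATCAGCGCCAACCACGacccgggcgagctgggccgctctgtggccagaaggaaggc
Hspa5, chr2:34772020-34772048, plus strand: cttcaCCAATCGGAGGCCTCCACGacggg
In Asns and Pycr1 the CARE reads in the direction of the gene and starts 23 and 103 bases before the RefSeq start. In Vldlr and Chac1 it lies on the opposite strand, as the ERSE does in Calr.

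Between 17284091 and 29233738 reads per library were assigned to genes in the knockdown experiment and between 40119305 and 93697833 in the inhibitor experiment. Prmt1 stood at 5601, 5717 and 5620 in shControl and at 669, 761 and 683 in shPrmt1 cells, low in every library labelled as a knockdown, whereas its mRNA was between 14063 and 16107 in all inhibitor libraries. Of 8 colon carcinoma markers, only 2 reached a mean of 10 normalized counts in shControl and in shPrmt1, 3 in vehicle and 4 in each inhibitor group. Epcam was at 0 in all 15 libraries and Cdh1 in every library of the knockdown experiment. Krt19 and Vil1 were at 0 in all shControl libraries. The summed level was 541 to 810 in the knockdown experiment and 1245 to 1851 in the inhibitor experiment, while 6 immune markers summed to at most 29.3. The 4 fibroblast markers, of which Col1a1 was abundant, summed to 2110 to 2734 in shControl and 3252 to 5120 in shPrmt1 libraries, and 19085 to 19995 in vehicle, 11854 to 15718 in MS023 and 17493 to 20129 in GSK3368715 libraries. The part of these marker differences in the results below was not tested.

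Normalized counts are reads divided by a size factor for each library, and the 2 experiments were normalized separately, so levels are compared only within an experiment. Per kilobase of the principal transcript, the ER chaperones Hsp90b1 (GRP94), Calr (calreticulin) and Hspa5 (BiP) and the transcription factor Atf4 were the 4 highest members in both control groups, with mean vehicle levels of 40519, 24512, 23681 and 25615 normalized counts per kilobase. Amino acid genes followed, with Phgdh at 22058, Psat1 at 18711 and Asns at 18315 in vehicle libraries. At the other end, Pycr1 had 381 and Eif2ak3 329. Atf3, a stress-induced transcription factor of the ATF4 arm, had at most 2.41 normalized counts in any library and was not tested, leaving 35 members.

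The metabolic genes of the ATF4 arm were lower in MS023-treated cells as a class. With MS023, 11 of 12 were lower and passed the test (limma, Benjamini-Hochberg adjusted p under 0.05), and the median log2 fold change was -0.34, against 0.00 over all 13014 genes tested in this comparison, of which 27.9% were called, 13.7% higher and 14.1% lower. In all 12 the 3 MS023 libraries lay below the 3 vehicle libraries, a pattern seen in 22.1% of all genes, with 22.4% separated the other way. The mean of the class, taken per library relative to the vehicle mean, was -0.38, -0.34 and -0.31 on the log2 scale in the MS023 libraries and 0.13, -0.14 and 0.01 in the vehicle libraries.

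Serine synthesis runs from 3-phosphoglycerate through the enzymes PHGDH, PSAT1 and PSPH. Phgdh, the first enzyme, had 46247, 38997 and 40022 normalized counts in the vehicle libraries, 34088, 31072 and 33272 with MS023 and 35893, 39038 and 36309 with GSK3368715. The MS023 libraries were the lowest 3 of the 9, and the log2 fold change was -0.34 ± 0.07 (SE, adjusted p = 0.00521). Reads were also assigned to 8 near-identical pseudogene copies, and whether they came from Phgdh or from the copies was not tested. Phgdh held 91.1% of the summed count in vehicle cells, and the summed count changed by -0.33. Psat1 was 48198, 51045 and 47660 in vehicle and 43535, 41024 and 41124 in MS023 libraries, a separation of the groups with the smallest change among the called members of the class, -0.22 ± 0.05 (adjusted p = 0.00894). Psph was 7562, 5854 and 6628 in vehicle and 5228, 4995 and 5169 in MS023 libraries, with all MS023 values below the lowest vehicle value and a log2 fold change of -0.37 ± 0.09 (adjusted p = 0.0112). Psph shares 452 exonic bases with Cct6a on the opposite strand, and the strand setting of the counting is not given in the sources used here.

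Asparagine synthetase, Asns, fell from 39859, 34055 and 36856 in vehicle to 26961, 28375 and 29027 in MS023 libraries. These groups were far apart, at 76.2% of the vehicle mean and a log2 fold change of -0.39 ± 0.07 (adjusted p = 0.00326). With GSK3368715 its values were 28934, 34044 and 31490, also below all vehicle values, though only just (34044 against 34055). The change of -0.23 ± 0.07 did not pass the test in limma (adjusted p = 0.0749).

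Mitochondrial one-carbon metabolism is represented by Shmt2, which transfers the serine carbon to folate, and by Mthfd2. Shmt2 had 38824, 29412 and 35233 normalized counts in vehicle, 24633, 25012 and 26467 in MS023 and 27713, 29972 and 28002 in GSK3368715 libraries. The MS023 libraries again lay below all others, with a log2 fold change of -0.43 ± 0.09 (adjusted p = 0.00465), and the GSK3368715 values overlapped the lowest vehicle value. Mthfd2 was 20932, 18036 and 20090 in vehicle and 16492, 16121 and 16159 in MS023 libraries, a smaller change of -0.27 ± 0.07 (adjusted p = 0.0147) that was not called without the second MS023 or the third vehicle library.

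Both proline synthesis genes fell as well. Aldh18a1, which makes the glutamate semialdehyde precursor, was 23207, 18247 and 21201 in vehicle and 14723, 15936 and 15685 in MS023 libraries, separate groups at 74.0% of the vehicle mean (log2 fold change -0.43 ± 0.10, adjusted p = 0.00777). Pycr1, whose protein carries out the last step, was the least abundant of the class with 1321, 887 and 1120 in vehicle and 735, 848 and 805 in MS023 libraries. Its groups lay close at their edges (887 against 848), and the change of -0.46 ± 0.15 had an adjusted p of 0.0419, a call that was lost without any 1 MS023 library, the first or the third vehicle library or the second GSK3368715 library.

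Among the amino acid carriers, Slc7a5 (LAT1, for large neutral amino acids) was 38318, 30150 and 35162 in vehicle and 26023, 26697 and 29175 in MS023 libraries, and Slc7a1 (for cationic amino acids) was 26629, 25356 and 28189 against 19518, 21404 and 22602. Each fell without overlap, by 0.33 ± 0.09 (adjusted p = 0.0209) and 0.34 ± 0.07 (adjusted p = 0.00637) on the log2 scale. Slc3a2, the heavy chain that partners LAT1, was 21551, 17311 and 18924 against 16521, 17072 and 16143 and was the member of the class that did not pass the test (log2 fold change -0.21 ± 0.09, adjusted p = 0.109). Vldlr, a lipoprotein receptor that ATF4 induces, was 18722, 16593 and 17498 in vehicle and 13118, 15106 and 15060 in MS023 libraries (log2 fold change -0.29 ± 0.09, adjusted p = 0.0316). The calls of Slc7a5 and Vldlr were lost without the first or the third vehicle library or without the first or second MS023 library, that of Vldlr also without the third, and the call of Slc7a1 was kept in every such fit.

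**Figure D1:**
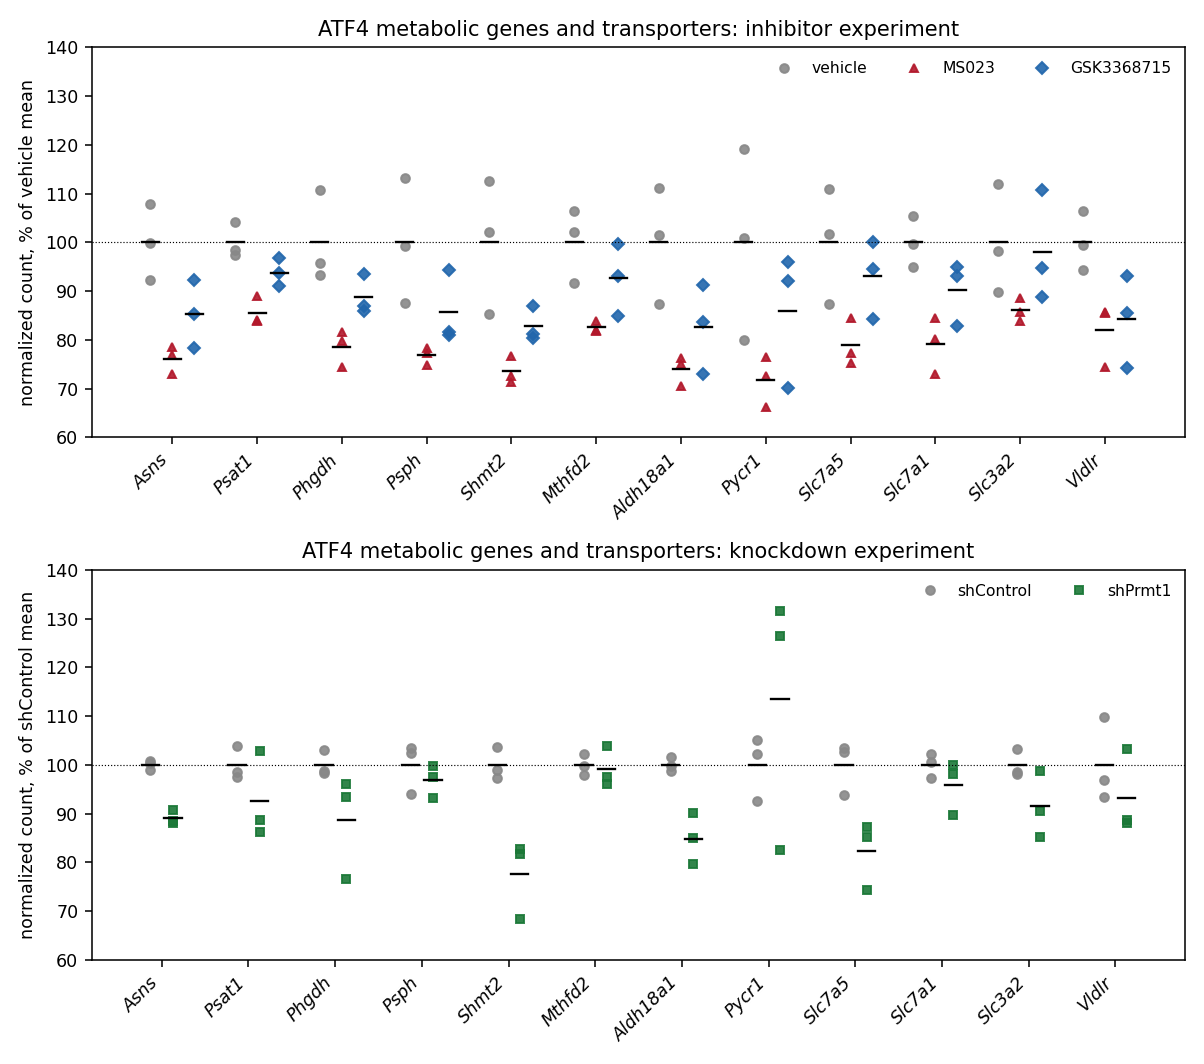
Normalized counts of the 12 ATF4 metabolic genes and transporters in each library, as a percentage of the mean of the control group of the same experiment (upper panel, vehicle; lower panel, shControl); points are libraries, short black lines are group means of 3 libraries, and the y axis starts at 60%. In the upper panel the MS023 triangles lie below the vehicle circles for all 12 genes, whereas in the lower panel the shPrmt1 squares lie clearly lower for Shmt2, Aldh18a1 and Slc7a5.

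With GSK3368715, all 12 metabolic genes had a log2 fold change below 0, from -0.27 to -0.03 with a median of -0.19. None passed the test in the main limma fit, where 9.64% of all genes did, 5.16% higher and 4.47% lower. DESeq2 called 3 of the 12 lower, Aldh18a1, Asns and Shmt2. The share of all genes that DESeq2 called is not given here, and the limma shares do not apply to this count. Of the 12, 3 (Asns, Psat1 and Vldlr) did not overlap with vehicle, against 14.1% of all genes separated in this direction and 13.7% in the other. Their groups lay close at the edges, at 34044 against 34055, 47343 against 47660 and 16396 against 16593. For Asns and Vldlr that vehicle value was the second library. Slc3a2, at -0.03, was above 0 without the first GSK3368715 or the first vehicle library. Both inhibitor comparisons use the same 3 vehicle libraries, so their values are set side by side here and their likeness is not a separate result.

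In the knockdown experiment 3 metabolic genes were called lower, where 14.7% of all 11485 genes tested were called, 7.5% higher and 7.17% lower. Shmt2 was 10461, 10290 and 10963 in shControl and 8631, 7220 and 8748 in shPrmt1 libraries, with a log2 fold change of -0.37 ± 0.08 (adjusted p = 0.0189). Slc7a5 was 9781, 8940 and 9861 against 8319, 7086 and 8118 (log2 fold change -0.28 ± 0.08, adjusted p = 0.0414), and Aldh18a1 was 4720, 4806 and 4667 against 4263, 3766 and 4021 (log2 fold change -0.24 ± 0.06, adjusted p = 0.0391). None of these groups overlapped, and in all 3 genes the second shPrmt1 library was the lowest. The calls rest on all shControl libraries: without any 1 of the 3, none of the 3 genes passed the test. The calls of Aldh18a1 and Slc7a5 were also lost without the third shPrmt1 library, with the same total in every library and with no filter on low counts, and no trend in the fit ended all 3. Asns was 11657, 11606 and 11456 against 10505, 10205 and 10244, separate groups with a log2 fold change of -0.17 ± 0.05 that did not pass (adjusted p = 0.0565) in limma and passed in DESeq2 (adjusted p = 0.0171). The class as a whole had a median of -0.12, with 11 of 12 genes below 0 (10 with the same total in every library or without the second shControl or the first shPrmt1 library, where Mthfd2 changed sign) and 5 of 12 separated downwards, against 18.9% of all genes separated downwards and 19.2% upwards.

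The regulatory genes of the ATF4 arm gave no call in any comparison in the main limma fit. Cebpg was called with shPrmt1 in DESeq2 (adjusted p = 0.0287) and in limma with the same total in every library (adjusted p = 0.0392). It was also called there with the replicate number as a block and without the second shPrmt1 library. Cebpb was called with MS023 without the first vehicle library. Atf4 itself was 44584, 43078 and 44897 in vehicle, 40182, 41796 and 43357 in MS023 and 40695, 43043 and 44006 in GSK3368715 libraries, groups that overlapped and differed little. Its log2 fold change was -0.08 ± 0.05 (adjusted p = 0.273) with MS023, -0.05 ± 0.05 (adjusted p = 0.559) with GSK3368715 and -0.10 ± 0.08 (adjusted p = 0.46) with shPrmt1, with 95% intervals from -0.20 to 0.03, from -0.17 to 0.06 and from -0.28 to 0.09.

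The targets that act in feedback or cell death varied most among the libraries of one group. Ddit3 (CHOP, a transcription factor linked to cell death) was 6758, 3022 and 5215 in vehicle, 3058, 3878 and 3931 in MS023 and 2602, 4868 and 3288 in GSK3368715 libraries. Ppp1r15a (GADD34, which directs dephosphorylation of eIF2α) was 13765, 4238 and 9329 in vehicle, 3781, 4959 and 5097 in MS023 and 4315, 8593 and 5343 in GSK3368715 libraries. The vehicle values alone spread 2.24-fold and 3.25-fold, and in both genes the second vehicle library lay among the treated ones. The fitted log2 fold changes with MS023 were -0.40 ± 0.28 (adjusted p = 0.317) for Ddit3 and -0.84 ± 0.37 (adjusted p = 0.114) for Ppp1r15a, so that neither passed the test after adjustment, although the unadjusted p of Ppp1r15a was 0.0441 and its 95% interval ran from -1.65 to -0.03. Trib3, a pseudokinase that restrains ATF4, followed the same order with 12942, 7863 and 11659 in vehicle, 7966, 9337 and 9878 in MS023 and 7111, 10878 and 9191 in GSK3368715 libraries (log2 fold change with MS023 -0.23 ± 0.19, adjusted p = 0.392). Ddit3 shares exonic bases with Mars1 on the opposite strand.

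The library order was shared across this class. In each group of the inhibitor experiment, the deepest library had the lowest value of all 7 tested regulators: the second vehicle library with 73450043 reads, the first MS023 library with 93697833 and the first GSK3368715 library with 77648780, against 40119305 to 60576057 in the other 6. The second vehicle library was also the lowest of its group in 11 of 12 metabolic genes and the highest in 10 of 12 chaperones, on the side of the treated groups in both. The part of depth, or of a difference between cultures that moved with it, was not tested. Left out of the fit, this 1 vehicle library raised the members called with MS023 from 17 to 25, among them Ddit3, Ppp1r15a and Cebpg, and those called with GSK3368715 from 1 to 13. Without the deepest library of all 3 groups, 20 members were called with MS023, including Ppp1r15a at -1.17 (adjusted p = 0.0136), Trib3 at -0.36 (adjusted p = 0.0348) and Cebpg at -0.38 (adjusted p = 0.036), and 3 with GSK3368715. The shares of all genes called in these refits are not given here, so the changes in count cannot be read as particular to the members. The fall of the metabolic class under MS023 was present in all of these fits. Without the deepest libraries 11 genes were called lower, and 12 without vehicle replicate 2. Leaving out any other single vehicle or MS023 library lowered this count from 11. It was 7 without vehicle replicate 3 or MS023 replicate 2, and 8 without vehicle replicate 1 or MS023 replicate 1. Without MS023 replicate 3 it was 9, and with no trend in the fit 8. All 12 log2 fold changes stayed below 0 in each of these fits.

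**Figure D2:**
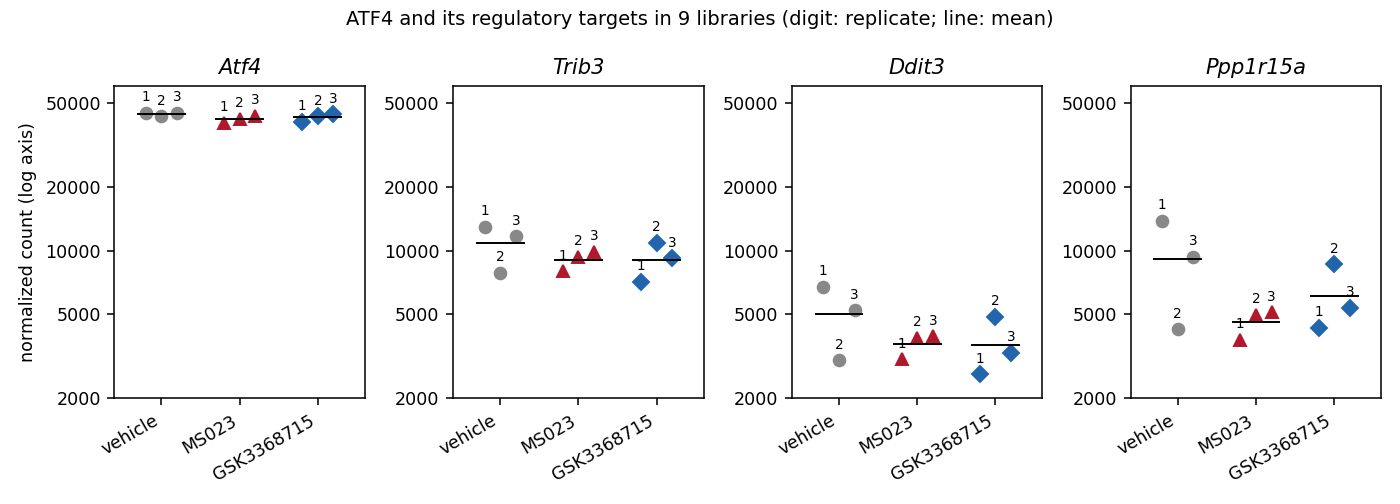
Normalized counts (log axis) of Atf4, Trib3, Ddit3 and Ppp1r15a in the 9 libraries of the inhibitor experiment; each point is a library, the digit is its replicate number and the line is the mean of 3. Atf4 is level across groups, while the second vehicle library falls to 3022 for Ddit3 and 4238 for Ppp1r15a, within the range of the treated libraries.

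In the knockdown experiment these genes varied less within a group than in the vehicle or GSK3368715 libraries. Ddit3 was 504, 466 and 491 in shControl and 498, 387 and 520 in shPrmt1 libraries, and Ppp1r15a was 802, 709 and 707 against 710, 478 and 699, overlapping in both. Cebpg, a partner of ATF4 in DNA binding, was 2553, 2727 and 2545 against 2929, 3497 and 2965, separate groups with a log2 fold change of 0.26 ± 0.08 that did not pass (adjusted p = 0.0672).

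Of the 4 genes of the sensing branches, Ern1 changed most with MS023 and with shPrmt1. Ern1, which encodes IRE1α, was 2102, 2073 and 2132 in shControl and 1587, 1593 and 1594 in shPrmt1 libraries, 75.7% of the control mean with almost no spread (log2 fold change -0.40 ± 0.06, adjusted p = 0.00339). In the inhibitor experiment it was 11011, 9103 and 11384 in vehicle, 6552, 7405 and 7617 in MS023 and 8865, 9416 and 8840 in GSK3368715 libraries. The MS023 libraries lay below all others (log2 fold change -0.54 ± 0.09, adjusted p = 0.00133), and the GSK3368715 libraries overlapped with vehicle (-0.21 ± 0.09, adjusted p = 0.153). Ern1 was called with shPrmt1 and with MS023 whichever single library was left out.

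Eif2ak3, the PERK gene, moved the other way under MS023, from 1354, 1656 and 1448 in vehicle to 1739, 1918 and 1848, without overlap (log2 fold change 0.31 ± 0.08, adjusted p = 0.0204). Its exons overlap Gm43292 on the opposite strand by 485 bases. Atf6 was 15127, 13398 and 14367 in vehicle and 11824, 12455 and 12408 in MS023 libraries and fell by 0.22 ± 0.07 (adjusted p = 0.0329). With GSK3368715 it was 11115, 13149 and 12450, also below all vehicle values. That change was not called in limma (log2 fold change -0.23 ± 0.07, adjusted p = 0.0633) and was called in DESeq2. The calls of Eif2ak3 and Atf6 under MS023 were lost without the first or the third vehicle library and without the second or the third MS023 library, that of Atf6 also without the first. Xbp1 was 3384, 3270 and 3164 in vehicle, 3450, 3521 and 3774 in MS023 and 3677, 3612 and 3481 in GSK3368715 libraries, higher in every treated library than in any vehicle library, with log2 fold changes of 0.13 ± 0.05 (adjusted p = 0.104) and 0.13 ± 0.05 (adjusted p = 0.154).

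No ER chaperone was called lower with MS023. Of the 12, 3 were called higher, where 13.7% of all genes were, and 4 were separated upwards, where 22.4% of all genes were. The median log2 fold change was 0.11, with 9 above 0 and 3 below. Calr, a lectin chaperone that binds calcium, was 49306, 57710 and 53587 in vehicle, 65762, 63952 and 66066 in MS023 and 64878, 57349 and 65976 in GSK3368715 libraries. All MS023 values exceeded the highest vehicle value, and the log2 fold change was 0.29 ± 0.07 (adjusted p = 0.0127). Pdia4, a protein disulfide isomerase, was 14106, 15627 and 14147 in vehicle, 18115, 16795 and 17041 in MS023 and 16741, 16824 and 17285 in GSK3368715 libraries. Every treated library was above every vehicle library, with log2 fold changes of 0.24 ± 0.05 (adjusted p = 0.00791) and 0.21 ± 0.05 (adjusted p = 0.0351), and Pdia4 was the only member called with GSK3368715 in the main limma fit. That last call was lost without any 1 GSK3368715 library, the second or the third MS023 library, or the first or the third vehicle library. Dnajc3 (p58IPK, a cochaperone that inhibits PERK) was 6098, 8110 and 6857 in vehicle and 9086, 8862 and 8440 in MS023 libraries, higher without overlap (log2 fold change 0.33 ± 0.09, adjusted p = 0.0213), a call lost without the first or second MS023 library or the first or the third vehicle library.

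Hspa5 and Hsp90b1, which with Calr were the most abundant chaperones, gave no call in any comparison. Hspa5, the ER Hsp70 whose rise is a common sign of ER stress, was 86242, 90255 and 84368 in vehicle, 88152, 84356 and 84447 in MS023 and 88394, 86976 and 92120 in GSK3368715 libraries, with 95% intervals of the log2 fold change from -0.14 to 0.09 and from -0.08 to 0.15. Hsp90b1 was 107543 to 122307 over all 9 libraries. The remaining 7 chaperones ranged from -0.17 (Herpud1, an ER-associated degradation factor, adjusted p = 0.245) to 0.27 (Sdf2l1, adjusted p = 0.125) with MS023. With GSK3368715, 11 of 12 chaperones had a log2 fold change above 0 and the median was 0.19, with 1 call. In shPrmt1 cells no chaperone was called and the median was -0.05. Dnajb9 (ERdj4, which represses IRE1) had the largest difference, with 569, 631 and 590 in shControl and 716, 921 and 682 in shPrmt1 libraries, separate groups whose log2 fold change of 0.36 ± 0.12 did not pass the test (adjusted p = 0.0766) and passed in DESeq2 (adjusted p = 0.0336). Hyou1, an ER chaperone of the Hsp110 family, was 7223, 7065 and 7311 against 6543, 5867 and 6544 (log2 fold change -0.19 ± 0.06, adjusted p = 0.0749, and 0.0488 in DESeq2).

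**Figure D3:**
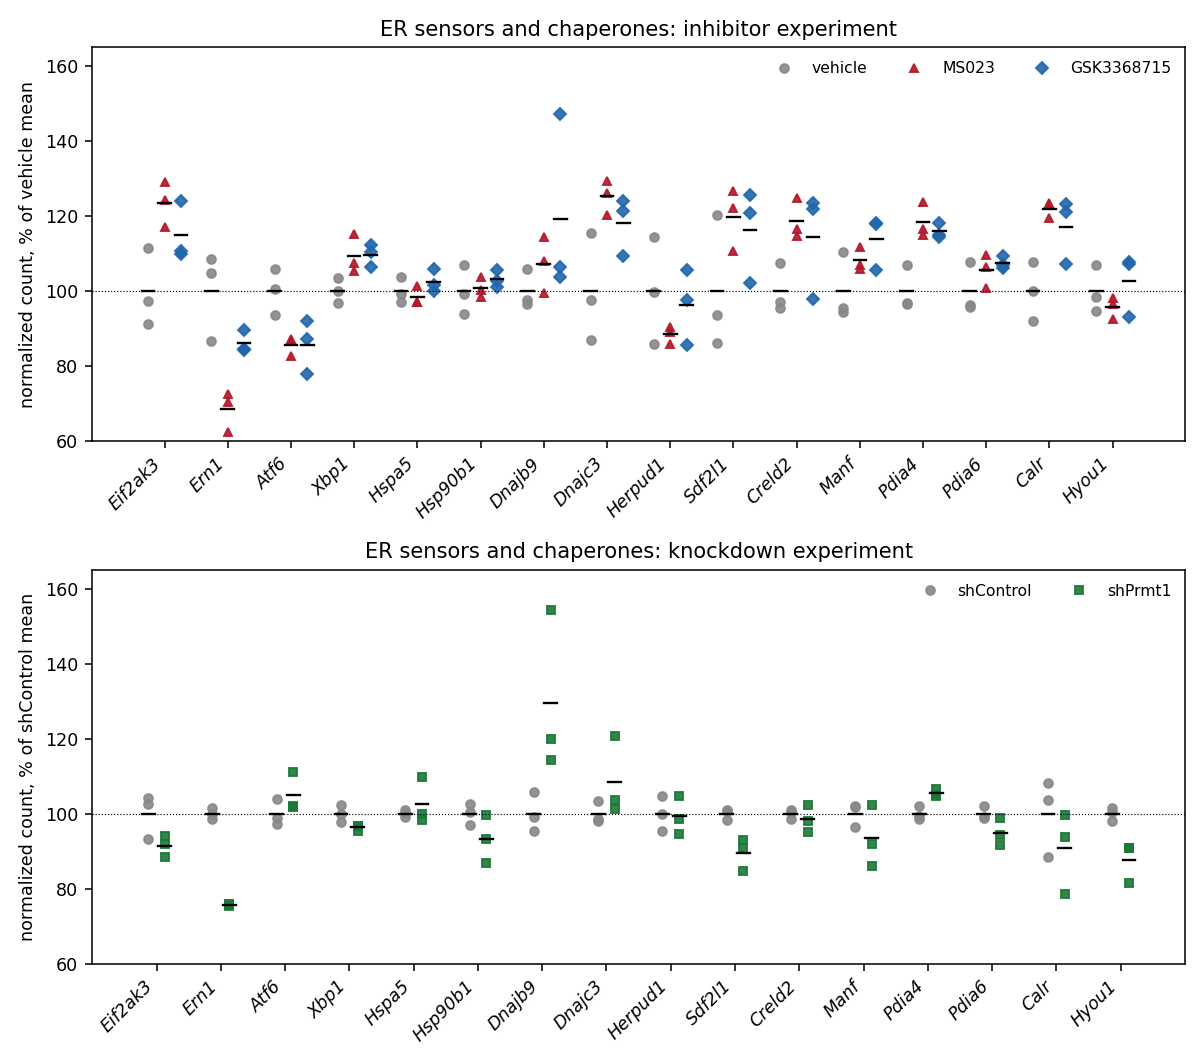
Normalized counts of the 4 sensing genes and 12 chaperones in each library, as a percentage of the mean of the control group of the same experiment (upper panel, vehicle; lower panel, shControl); points are libraries, short black lines are means of 3, and the y axis starts at 60%. Ern1 is the lowest gene in both panels, at 68.5% of vehicle with MS023 and 75.7% of shControl with shPrmt1, while Calr, Pdia4 and Dnajc3 lie above vehicle with MS023.

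**Figure D4:**
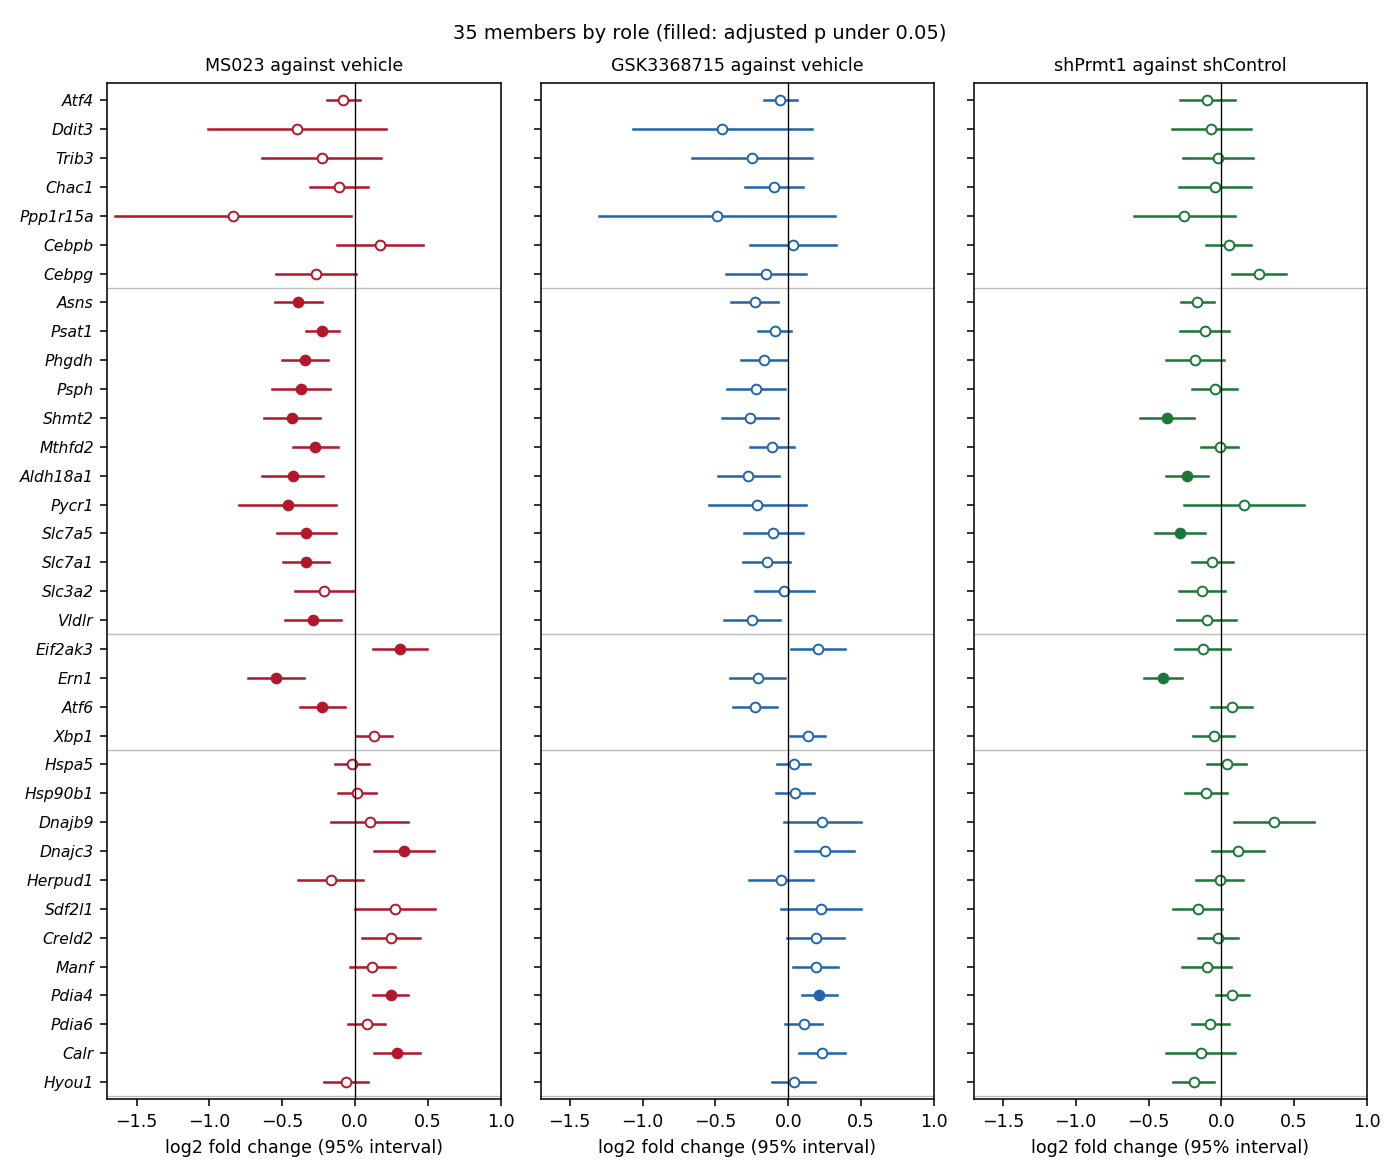
Log2 fold changes of the 35 tested members with 95% intervals from the limma fit, in 3 comparisons; grey lines separate the regulators, metabolic genes, sensing genes and chaperones from top to bottom, and filled points passed the test at an adjusted p under 0.05. The left panel has 17 filled points, 13 of them below 0, against 1 in the middle and 4 in the right panel.

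Over all members, 17 of 35 were called with MS023 (4 higher, 13 lower), 1 with GSK3368715 and 4 with shPrmt1, all 4 lower. Over all genes tested, 27.9% were called with MS023 (13.7% higher, 14.1% lower), 9.64% with GSK3368715 and 14.7% with shPrmt1 (7.17% lower). The members' share exceeded the background for lower calls with MS023 and was below the background with GSK3368715. With shPrmt1 the members' share was 11.4%, on 4 calls, below the background over both directions and above it for lower calls. Shmt2, Aldh18a1, Slc7a5 and Ern1 were called in the knockdown and with MS023, which have no libraries in common. The share of all genes called in both is not given here, so this overlap is not a result about the members. The knockdown calls of Shmt2, Aldh18a1 and Slc7a5 were lost without any single shControl library. For members with a CARE in the window, 3 of 6 tested were lower with MS023, and of the 6 members with an ERSE, 2 were higher, against 14.1% of all genes lower and 13.7% higher. The 3 were all metabolic genes, a class with 11 of 12 called lower, and the 6 were all chaperones, with 3 of 12 called higher. These counts therefore do not set the elements apart from the classes.

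The 2 inhibitors were compared directly at the same dose and time, as 1 pair of compounds. No member was called at an adjusted p under 0.05 in the main limma fit, against 0.515% of all genes, 0.315% higher and 0.2% lower with GSK3368715. An unadjusted p under 0.05 was found for 6 of the 35 members and for 1722 of all 13014 genes tested. Among the members edgeR called none and DESeq2 called Ern1. All 12 metabolic genes were less reduced with GSK3368715 than with MS023, with a median difference of 0.17 and 95% intervals reaching from -0.16 to 0.58 over the class, and 6 of them did not overlap between the 2 compounds, where 11.4% of all genes were separated in this direction and 9.95% in the other. Ern1 had the largest difference among the members separated between the compounds, 0.33 ± 0.09 with an interval from 0.14 to 0.52 (adjusted p = 0.139). The difference of Vldlr changed sign without the second GSK3368715 or the first MS023 library. For Slc7a5 the difference was 0.23 ± 0.09, with an interval from 0.03 to 0.44 (adjusted p = 0.312). After correction these libraries do not separate the compounds in the members, which does not show that the compounds act alike.

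Other genes of the same pathways, from lists of known ATF4 targets, aminoacyl-tRNA synthetases, eIF2 factors, ER proteostasis genes and cytosolic heat shock genes, were read from the same fits. Of 26 further ATF4 targets tested with MS023, 10 were lower and 2 higher, where 14.1% and 13.7% of all genes were. Among the lower ones were the neutral amino acid carriers Slc1a4 (log2 fold change -0.86 ± 0.11, adjusted p = 0.000446) and Slc1a5 (-0.62 ± 0.05, adjusted p = 5.46e-05) and the cystine carrier Slc7a11 (-0.57 ± 0.12, adjusted p = 0.00658). The cationic amino acid carrier Slc7a3 went the other way, at 1.35 ± 0.22 (adjusted p = 0.00151). With GSK3368715, 5 were lower and none higher (4.47% and 5.16% of all genes), and with shPrmt1, 7 of 25 were lower and 2 higher (7.17% and 7.5% of all genes), among them the mTORC1 inhibitor gene Ddit4 at -0.68 ± 0.08 (adjusted p = 0.00158) and Slc7a3 at 1.61 ± 0.38 (adjusted p = 0.0268). Slc7a3 was near the minimum of 10 normalized counts, with 4.4, 10.1 and 7.7 in shControl and 18.3, 30.3 and 23.5 in shPrmt1 libraries. It entered this fit through the shPrmt1 libraries, where it was high, so its call is not independent of the filter.

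Aminoacyl-tRNA synthetase genes, which charge tRNAs with amino acids and include ATF4 targets, were called lower with MS023 in 13 of 20 cases and higher in 1. Of all genes, 14.1% were called lower and 13.7% higher. The median log2 fold change of the 20 was -0.29, with 19 below 0. Vars, the valyl-tRNA synthetase, changed most, by -0.79 ± 0.06 (adjusted p = 2.08e-05) with MS023 and -0.42 ± 0.06 (adjusted p = 0.00221) with GSK3368715, and by -0.78 ± 0.16 (adjusted p = 0.0169) with shPrmt1. With GSK3368715, 3 of the 20 were lower and 1 higher, and with shPrmt1, 4 were lower, against 4.47%, 5.16% and 7.17% of all genes.

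Among 13 genes for eIF2 kinases, eIF2 and eIF2B subunits and phosphatase parts, 4 were higher and 2 lower with MS023, where 13.7% and 14.1% of all genes were. Eif2ak2 encodes PKR, an eIF2α kinase that is also interferon-induced, and it rose in all 3 comparisons, by 0.56 ± 0.06 (adjusted p = 0.00111) with shPrmt1, 0.21 ± 0.06 (adjusted p = 0.017) with MS023 and 0.25 ± 0.06 (adjusted p = 0.0185) with GSK3368715. Of 39 further ER proteostasis genes, 3 were higher and 6 lower with MS023, 2 and 1 with GSK3368715, and 1 and 6 with shPrmt1, where the shares over all genes were 13.7% and 14.1%, 5.16% and 4.47%, and 7.5% and 7.17%. Derl2, a part of the retrotranslocation machinery, was lower in all 3, by -0.62 ± 0.06 (adjusted p = 7.75e-05), -0.41 ± 0.06 (adjusted p = 0.00266) and -0.29 ± 0.08 (adjusted p = 0.039). Of 17 cytosolic heat shock genes tested, 2 were lower with MS023, none passed the test with GSK3368715 (smallest adjusted p = 0.0585) and 4 were lower with shPrmt1, against 14.1%, 4.47% and 7.17% of all genes. Hspa4l was at -0.55 ± 0.10 (adjusted p = 0.00231) with MS023.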

How the data were processed

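RNA from CT26 cells was made into mRNA libraries and sequenced in paired reads. According to the sources, the authors quantified reads against mm10 with Salmon 1.4.0 and used DESeq2, whose version is not given in the sources used here. The deposited normalized counts (signal) are read counts divided by a size factor per library, and every value was a whole multiple of 1 read to within 0.001 reads. These recovered reads give the depths above and served the count-based alternatives. The 3 further tables hold the authors' own comparisons and were not used.

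Groups came from sample titles, doses and times from the study's legends. Genes that reached 10 normalized counts in 3 or more libraries were fitted as log2(normalized count + 1) with limma 3.58.1 in R 4.3.3 (lmFit, eBayes with trend), with two-sided p-values adjusted by Benjamini-Hochberg over all genes tested and a threshold of 0.05. Fold changes are on this scale. The knockdown fit held 6 libraries and the inhibitor fit all 9, with 3 contrasts. Intervals are 95% and unadjusted. The fit was tested on simulated data.

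Members and lists were chosen with earlier results of these data known. Members called in a comparison are given by library and the others mainly by range and count, the uncalled members given in full having been chosen after their values were seen. Of each other list, examples come from the 4 called genes with the largest change. Positions and exons are from GENCODE vM21 (GRCm38). Alternatives were other pseudocounts, filters, scalings and tools (edgeR 4.0.16, DESeq2 1.42.0), a fold threshold, a replicate block, fits of 2 groups and single libraries left out. Summing Phgdh with its copies and leaving out the deepest library of each inhibitor group were chosen after seeing the data.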

Additional observations from a re-analysis of the deposited data

Results flagged for a closer look

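The difference between the 2 inhibitors passed the test for Vars, the valyl-tRNA synthetase gene, which was 0.37 higher on the log2 scale with GSK3368715 than with MS023 (limma, adjusted p = 0.0223).

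In 8 members every treated library of the knockdown lay on one side of its control mean and every library of an inhibitor group on the other. How many of all genes met this rule was not counted, so the 8 are only listed and are not a result about the members. The difference was not tested, because the 2 experiments were normalized separately, and most of these values did not pass the test within their own experiment. Cebpg was 0.26 with shPrmt1 and -0.27 with MS023. Eif2ak3 was -0.13 with shPrmt1, 0.31 with MS023 and 0.20 with GSK3368715. Atf6 was 0.07 with shPrmt1, -0.22 with MS023 and -0.23 with GSK3368715, and Xbp1 was -0.05 with shPrmt1 and 0.13 with each inhibitor. Of the chaperones, Calr was -0.14 with shPrmt1, 0.29 with MS023 and 0.23 with GSK3368715, and Sdf2l1 was -0.16, 0.27 and 0.23 in the same order. Pdia6 was -0.08 with shPrmt1, 0.08 with MS023 and 0.11 with GSK3368715, and Hsp90b1 was -0.10 with shPrmt1 and 0.05 with GSK3368715.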

How the results depend on the processing

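No log2 fold change printed for a single gene changed direction under any alternative, apart from that of Slc3a2 with GSK3368715. Among the other tested members, whose values were near 0, the same total in every library turned Creld2, Herpud1, Mthfd2 and Trib3 with shPrmt1 and Hspa5 with MS023, and leaving out single libraries turned up to 6 members in a comparison with a control and up to 8 between the inhibitors. With single libraries left out in turn, the number of members called ranged from 1 to 9 with shPrmt1, from 10 to 25 with MS023, from 0 to 13 with GSK3368715 and from 0 to 1 between the inhibitors. The 25 and the 13 were reached without the second vehicle library, the 10 without the third vehicle or the second MS023 library, and the 9 without the second shPrmt1 library. A fold threshold of 1 on the log2 scale left 0 members in each comparison with a control. In the knockdown, 2 members were called with no filter on low counts, 1 with no trend in the fit and 8 with DESeq2. With MS023, 16 were called with no filter, which lost Pycr1, and 18 with DESeq2. No trend left 12, without Atf6, Dnajc3, Pycr1, Slc7a5 and Vldlr. The same total in every library gave 16, without Atf6, Pycr1 and Vldlr and with Creld2 and Xbp1 added. With GSK3368715, 0 were called with no filter, with no trend and with only the 2 groups compared in the fit, 2 with the same total in every library, 6 with DESeq2 and 3 without the deepest library of each group. Between the inhibitors DESeq2 called 1. The cause of these differences was not tested, apart from the fewer libraries or genes that a fit holds by construction. Shares of all genes called under these alternatives are not given here, so the counts cannot be read as particular to the members. Summing Phgdh with its copies changed no count.

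Replicate numbers did not pair the libraries by the rule used, since correlations of deviations between libraries of the same number ranged from -0.10 to 0.12. With the replicate number as a block, 8 members were called with shPrmt1 (Asns, Cebpg, Dnajb9 and Hyou1 beside the 4, as in DESeq2), 15 with MS023, 0 with GSK3368715 and 0 between the inhibitors. In the knockdown each library correlated best with the library of its own number, a hint from the data and not from the design.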
